A study of Mus musculus with 6 samples.

Results

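The RNA of 6 genes of red blood cells and heme synthesis, namely Alas2, Hbb-b2, Slc25a37, Bpgm, Fech and Alas1, was followed in mouse hearts on Affymetrix arrays. Their members on the array were all probe sets whose only annotated symbol is one of these genes, 13 of 45037 non-control probe sets, with 4 for Fech, 3 for Bpgm, 2 each for Alas1 and Hbb-b2, and 1 each for Alas2 and Slc25a37. A further 2 probe sets that list one of the genes together with another symbol were left out of the members. The genes were chosen from earlier results of these same 6 arrays, in which Alas2 and Hbb-b2 were lower with treatment. The levels and differences of the members are therefore a description in each comparison, with no test.

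The first group held apoE-deficient mice on the B6 background that were given rosiglitazone from the age of 6 months on, for 2 months at 30 mg/kg a day, and the labels call their hearts failing. The second group held untreated apoE-deficient mice on the same background, and the third held untreated wild-type B6 mice. Every group was fed a chow of 7% fat and 0.15% cholesterol, and hearts were taken at 8 months. Each group had 2 arrays. Nothing in the labels ties the arrays to separate animals, so the p-values below rest on a spread between arrays that may be technical. Since the treated hearts are also the ones called failing, drug and failure cannot be told apart. Rosiglitazone is a drug against diabetes whose target is the nuclear receptor PPAR gamma, and apoE is an apolipoprotein that brings lipoproteins to their receptors.

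Heme is the iron-containing ring that carries oxygen in hemoglobin and myoglobin and electrons in the cytochromes. Its synthesis begins in the mitochondrion with 5-aminolevulinate synthase, which red blood cell precursors make from Alas2 and other tissues, the heart included, from Alas1, and it ends there when ferrochelatase puts iron into the ring. Young red blood cells, the reticulocytes, have lost the nucleus but still carry RNA for globin and heme enzymes, so heart tissue that holds blood holds this RNA as well. In RNA from whole tissue, fewer cells of a type and less RNA per cell cannot be told apart.

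The 250 bases before the start of Alas2 and of the adult beta-globin genes Hbb-bs and Hbb-bt are shown because Alas2 and beta-globin had the largest differences among the members. They are RefSeq sequences of the mouse assembly GRCm38.p6, 5′ to 3′ on the strand of the gene. The capitals mark the core of the site read by GATA factors (GATAA) and the CACCC box read by Klf1 and its relatives, searched on both strands, so that a match on the other strand reads TTATC or GGGTG. The table has no entry for Hbb-b2, Slc25a37 or Fech.
Alas2 (chrX:150547167-150547416, plus strand): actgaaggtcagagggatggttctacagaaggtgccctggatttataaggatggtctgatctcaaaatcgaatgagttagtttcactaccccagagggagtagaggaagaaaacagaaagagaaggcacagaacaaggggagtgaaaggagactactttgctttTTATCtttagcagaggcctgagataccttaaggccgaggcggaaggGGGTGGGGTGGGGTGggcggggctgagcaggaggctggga
Hbb-bs (chr7:103827929-103828178, minus strand): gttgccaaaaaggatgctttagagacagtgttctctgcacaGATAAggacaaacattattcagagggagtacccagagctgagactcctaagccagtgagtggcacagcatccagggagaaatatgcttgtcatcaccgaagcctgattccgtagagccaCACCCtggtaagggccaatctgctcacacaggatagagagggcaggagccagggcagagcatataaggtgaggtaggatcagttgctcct
Hbb-bt (chr7:103813924-103814173, minus strand): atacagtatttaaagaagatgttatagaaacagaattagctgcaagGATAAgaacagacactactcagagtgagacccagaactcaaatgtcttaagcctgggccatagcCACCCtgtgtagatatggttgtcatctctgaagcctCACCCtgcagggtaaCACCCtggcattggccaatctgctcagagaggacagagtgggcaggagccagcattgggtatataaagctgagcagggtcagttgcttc
The Alas2 window holds 1 GATAA match, which begins 86 bases before the start, and 3 CACCC matches side by side that begin 40, 35 and 30 bases before it, all on the other strand. The Hbb-bs window holds 1 match of each kind, at 209 bases for GATAA and 90 bases for CACCC, and the Hbb-bt window holds 1 GATAA match at 204 bases and 3 CACCC matches at 140, 104 and 89 bases. Both Alas1 windows in the table hold 1 CACCC match and 0 GATAA matches, and the Bpgm window holds 0 matches of either. Of 32851 windows of this length in the table, 22.6% hold GATAA and 52% hold CACCC. A match of so few letters is a description of the sequence and not a site.

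Alas2, which encodes the red cell form of the first enzyme of heme synthesis, had the largest differences of the members. Its probe set 1451675_a_at had log2 normalized signals of 6.79 and 6.21 in the rosiglitazone-treated apoE-deficient hearts, 8.01 and 7.91 in the untreated apoE-deficient hearts, and 9.11 and 9.21 in the B6 hearts. The treated arrays were the lowest and the B6 arrays the highest, with no overlap between groups. The log2 difference was -1.46 ± 0.18 (SE, n = 2 arrays each) for treated minus untreated apoE-deficient hearts, a level 2.75-fold lower with treatment. It was -1.20 ± 0.18 for untreated apoE-deficient minus B6 hearts, 2.30-fold lower with the deficiency, and -2.66 ± 0.18 for treated apoE-deficient minus B6 hearts, 6.33-fold lower. These differences are on the scale of log2(signal + 11.1), which understates the change of dim probe sets, and the 3 comparisons share arrays. Leaving out 1 array at a time moved the treated minus untreated value between -1.74 and -1.18, the treated array at 6.21 being the farther of its pair.

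**Figure D1:**
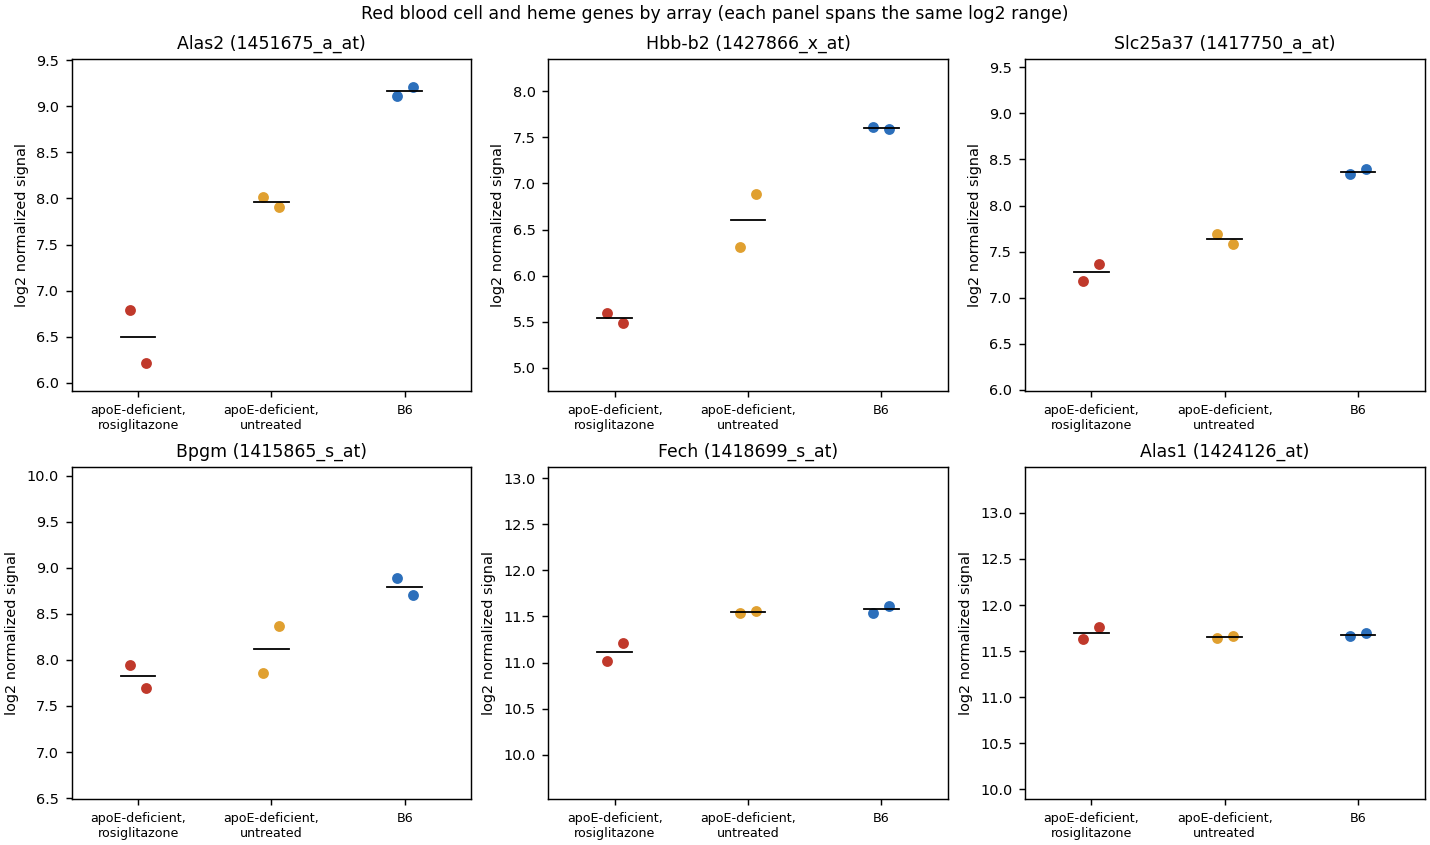
Log2 normalized signal of each member's brightest probe set on each of the 6 arrays, by group, with a bar at the group mean of 2 arrays; every panel spans the same log2 range. Alas2 and Hbb-b2 are lowest in rosiglitazone-treated apoE-deficient, intermediate in untreated apoE-deficient and highest in B6 hearts, while Alas1 lies between 11.63 and 11.76 on all arrays.

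Alas1, which makes the same enzyme activity outside red blood cells, was nearly level across the groups at its brighter probe set. Probe set 1424126_at had log2 signals of 11.63 and 11.76 in treated apoE-deficient hearts, 11.64 and 11.67 in untreated apoE-deficient hearts, and 11.66 and 11.69 in B6 hearts. The ranges of all 3 groups overlapped. The differences were 0.04 ± 0.05 for treated minus untreated apoE-deficient, -0.02 ± 0.05 for untreated apoE-deficient minus B6 and 0.02 ± 0.05 for treated apoE-deficient minus B6. The second Alas1 probe set, 1455282_x_at, whose suffix marks probes that may match other transcripts, had 9.23 and 8.74 in treated, 8.62 and 8.48 in untreated apoE-deficient and 8.55 and 8.44 in B6 hearts. There the treated arrays were the highest, by 0.44 ± 0.15 over untreated apoE-deficient and by 0.49 ± 0.15 over B6 hearts, so both Alas1 probe sets did not give 1 pattern.

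Hbb-b2, a beta-globin gene, followed the order of Alas2 at its brighter probe set. Probe set 1427866_x_at had log2 signals of 5.60 and 5.48 in treated apoE-deficient hearts, 6.32 and 6.89 in untreated apoE-deficient hearts and 7.62 and 7.59 in B6 hearts. Its suffix, too, marks probes that may match other transcripts, and its deposited signals were low, from 41.4 to 163. No 2 groups overlapped, and the untreated apoE-deficient pair was the most spread. The differences were -1.06 ± 0.23 for treated minus untreated apoE-deficient, -1.00 ± 0.23 for untreated apoE-deficient minus B6 and -2.06 ± 0.23 for treated apoE-deficient minus B6. The dimmer probe set 1427865_at had 5.91 and 5.77 in treated, 7.14 and 5.74 in untreated apoE-deficient and 6.54 and 6.37 in B6 hearts. Its 2 untreated apoE-deficient arrays lay on either side of all the others, and its differences of -0.60, -0.02 and -0.62 carried an SE of 0.40. Mice of the B6 strain carry the beta-globin genes Hbb-bs and Hbb-bt, and Hbb-b2 belongs to another form of the locus with a near-identical sequence. Which gene's RNA these probes bound was not tested.

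The globins themselves are so alike that 4 probe sets of the array list several globin genes at once. They are no members, were picked after their values were seen, and are described with no test. The beta-globin probe set 1417184_s_at (Hbb-bt, Hbb-bs, Hbb-b2 and Hbb-b1) had log2 signals of 12.74 and 12.77 in treated apoE-deficient hearts, 13.47 and 13.47 in untreated apoE-deficient hearts and 13.70 and 13.70 in B6 hearts. It kept the order of Alas2, with differences of -0.71 ± 0.03 for treated minus untreated apoE-deficient, -0.23 ± 0.03 for untreated apoE-deficient minus B6 and -0.94 ± 0.03 for treated apoE-deficient minus B6. The alpha-globin probe set 1417714_x_at (Hba-a2 and Hba-a1) kept it too, with 10.07 and 10.09 in treated, 11.25 and 11.17 in untreated apoE-deficient and 12.53 and 12.47 in B6 hearts. Its differences were -1.13 ± 0.05, -1.29 ± 0.05 and -2.42 ± 0.05 in the same 3 comparisons, close in size to those of Alas2. The other alpha-globin probe sets had smaller differences with quantile normalization. For 1452757_s_at the differences were -0.29 ± 0.03, -0.12 ± 0.03 and -0.41 ± 0.03, and for 1428361_x_at they were -0.66 ± 0.07, 0.17 ± 0.07 and -0.49 ± 0.07, so that untreated apoE-deficient hearts were there the highest. The beta-globin probe set and these 2 alpha-globin probe sets lay among the brightest 0.389%, 0.142% and 0.167% of probe sets, and 1417714_x_at at 2.69%. With arrays scaled on medians, trimmed means or hybridization controls, that ranking did not hold for treated minus untreated apoE-deficient hearts, where values lay between -1.35 and -1.02 for 1428361_x_at, between -0.997 and -0.672 for 1452757_s_at, between -1.20 and -0.885 for 1417714_x_at and between -1.26 and -0.935 for the beta-globin probe set 1417184_s_at. For untreated apoE-deficient minus B6 hearts, 1417184_s_at was -0.14 with trimmed means and -0.00173 with hybridization controls, and 1452757_s_at turned to 0.109 with the controls.

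**Figure D2:**
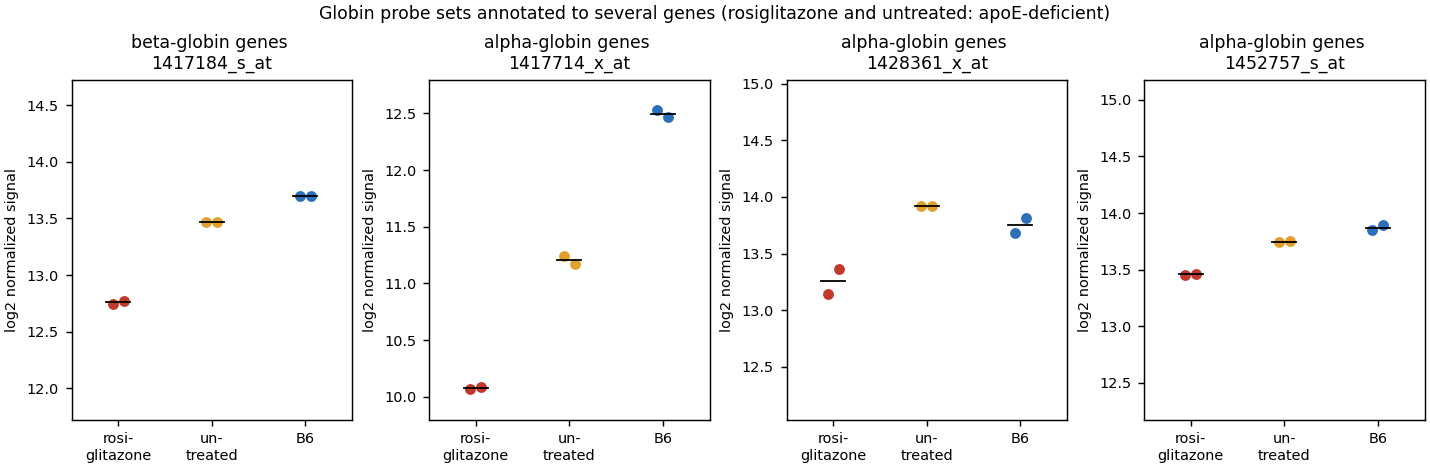
Log2 normalized signal on each array for the 4 probe sets annotated to several globin genes, with a bar at each group's mean of 2 arrays and the same log2 span in each panel. The treated arrays are the lowest at all 4 probe sets, and at 1417714_x_at the 3 groups are more than 1 log2 unit apart.

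Slc25a37, the mitochondrial carrier also called mitoferrin-1 that brings iron to heme synthesis in red cell precursors, was highest in B6 hearts. Its probe set 1417750_a_at had log2 signals of 7.18 and 7.37 in treated apoE-deficient hearts, 7.69 and 7.59 in untreated apoE-deficient hearts and 8.34 and 8.40 in B6 hearts. The groups did not overlap. The difference was -0.36 ± 0.13 for treated minus untreated apoE-deficient, against -0.73 ± 0.13 for untreated apoE-deficient minus B6 and -1.09 ± 0.13 for treated apoE-deficient minus B6.

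Bpgm makes bisphosphoglycerate, the red cell metabolite that lowers the oxygen affinity of hemoglobin, and its 3 probe sets were all highest in B6 hearts. The brightest, 1415865_s_at, had log2 signals of 7.95 and 7.69 in treated apoE-deficient hearts, 7.86 and 8.37 in untreated apoE-deficient hearts and 8.89 and 8.70 in B6 hearts. Both apoE-deficient groups overlapped, and the B6 arrays stood above them. The untreated apoE-deficient minus B6 differences were -0.68 ± 0.17 at 1415865_s_at, -0.48 ± 0.12 at 1448119_at and -0.64 ± 0.16 at 1415864_at. The treated minus untreated apoE-deficient differences were -0.29 ± 0.17, -0.46 ± 0.12 and 0.03 ± 0.16, so the probe sets differed in that comparison. Without untreated replicate 2 the first of these was -0.0385, and without untreated replicate 1 it was -0.548. For treated apoE-deficient minus B6 hearts the 3 values were -0.97 ± 0.17, -0.94 ± 0.12 and -0.61 ± 0.16.

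Fech encodes ferrochelatase, the enzyme of the last step, which every cell that makes heme uses. Its brightest probe set, 1418699_s_at, had log2 signals of 11.02 and 11.21 in treated apoE-deficient hearts, 11.54 and 11.56 in untreated apoE-deficient hearts and 11.54 and 11.62 in B6 hearts. Only the treated arrays stood apart, and the differences were -0.43 ± 0.06 for treated minus untreated apoE-deficient, -0.03 ± 0.06 for untreated apoE-deficient minus B6 and -0.47 ± 0.06 for treated apoE-deficient minus B6. Probe set 1449181_at gave another order, with 10.04 and 9.94 in treated, 10.00 and 9.92 in untreated apoE-deficient and 10.58 and 10.45 in B6 hearts. There the apoE-deficient groups overlapped and lay below B6 hearts, with differences of -0.53 ± 0.07 for treated and -0.56 ± 0.07 for untreated apoE-deficient hearts. Probe set 1418698_a_at stayed within 0.18 log2 units between group means, at 0.13 ± 0.09, -0.18 ± 0.09 and -0.06 ± 0.09. The fourth, 1427696_at, had log2 signals from 3.62 to 4.84 on the 6 arrays, below the limit of 4.99 under which probe sets were taken as dim, and was left out of the fit. Which transcripts of Fech each probe set reads was not examined.

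**Figure D3:**
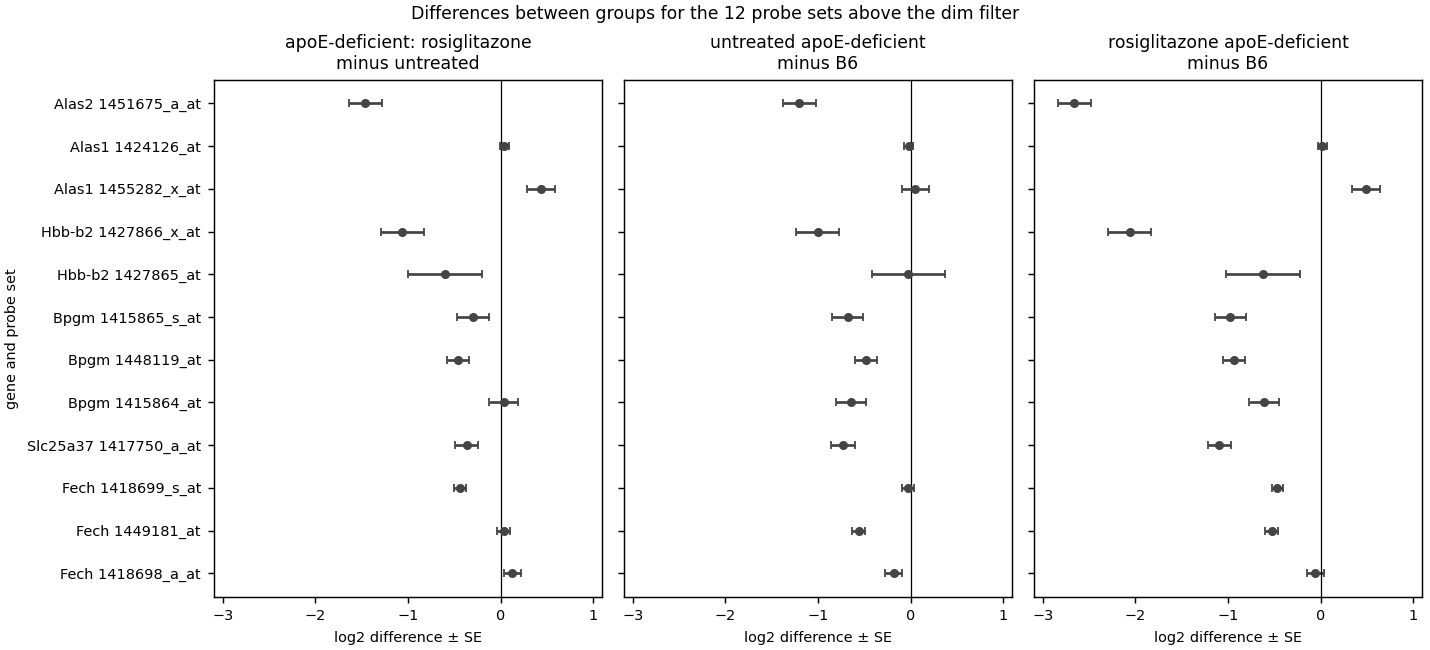
Log2 differences between groups with their standard errors for the 12 member probe sets above the dim filter, 1 panel a comparison (n = 2 arrays a group). The Alas2 point lies farthest left in each panel, and the probe sets of Bpgm, Fech and Hbb-b2 differ among themselves.

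In the fit over all 27022 probe sets above the dim filter, a probe set was called at a Benjamini-Hochberg adjusted p under 0.05 with limma. For treated minus untreated apoE-deficient hearts, 4 of the 12 tested member probe sets were called lower and 0 higher (1 higher at an unadjusted p under 0.05), where 9.81% of all tested probe sets were called lower and 10.0% higher. With the brightest probe set standing for its gene, 3 of the 6 members were lower, where 12.3% of 13236 genes were lower and 11.4% higher. For untreated apoE-deficient minus B6 hearts, 7 of 12 member probe sets and 4 of 6 members were lower and 0 higher (0 at an unadjusted p under 0.05). There 3.90% of probe sets and 4.66% of genes were lower, and 3.17% and 3.85% higher. For treated apoE-deficient minus B6 hearts, 8 of 12 probe sets and 5 of 6 members were lower and 0 probe sets higher (1 at an unadjusted p under 0.05), where 7.58% of probe sets and 9.87% of genes were lower, and 7.46% and 8.78% higher. Because the genes were chosen on these arrays, the counts describe the choice and nothing is read from them. The median log2 difference of the 6 members was -0.40, -0.70 and -1.03 in the 3 comparisons, where that of all tested genes was -0.03, 0.0006 and -0.03.

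The arrays differed in overall brightness along with the groups. Their 2%-trimmed mean signals were 341 and 263 for treated apoE-deficient, 126 and 130 for untreated apoE-deficient and 175 and 149 for B6 hearts, so brightness and group cannot be told apart. The number of arrays sets the precision. In the deposited signals, Alas2 stood at 179 and 87.5 in treated, 148 and 143 in untreated apoE-deficient and 479 and 436 in B6 hearts, so that the treated and untreated arrays overlapped before scaling. Scaling therefore sets the treated minus untreated values in part, and 1 measure that needs no scaling is the ratio of 2 probe sets on the same array. A change of such a ratio shows unequal change and not which of its genes changed.

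Set against Alas1 of the same array, Alas2 kept its order. The log2 ratio of the deposited Alas2 and Alas1 signals was -4.86 and -5.66 in treated apoE-deficient hearts, -3.89 and -4.00 in untreated apoE-deficient hearts and -2.59 and -2.55 in B6 hearts. The difference of group means was -1.32 for treated minus untreated apoE-deficient, -1.37 for untreated apoE-deficient minus B6 and -2.69 for treated apoE-deficient minus B6. For Hbb-b2 over Alas1 it was -1.07, -1.23 and -2.30 in the same order. For Slc25a37 it was -0.12, -0.91 and -1.03 and for Bpgm -0.058, -0.83 and -0.88, so that their ratios differed little between the apoE-deficient groups. Fech over Alas1 had the other pattern, at -0.43, -0.034 and -0.47.

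**Figure D4:**
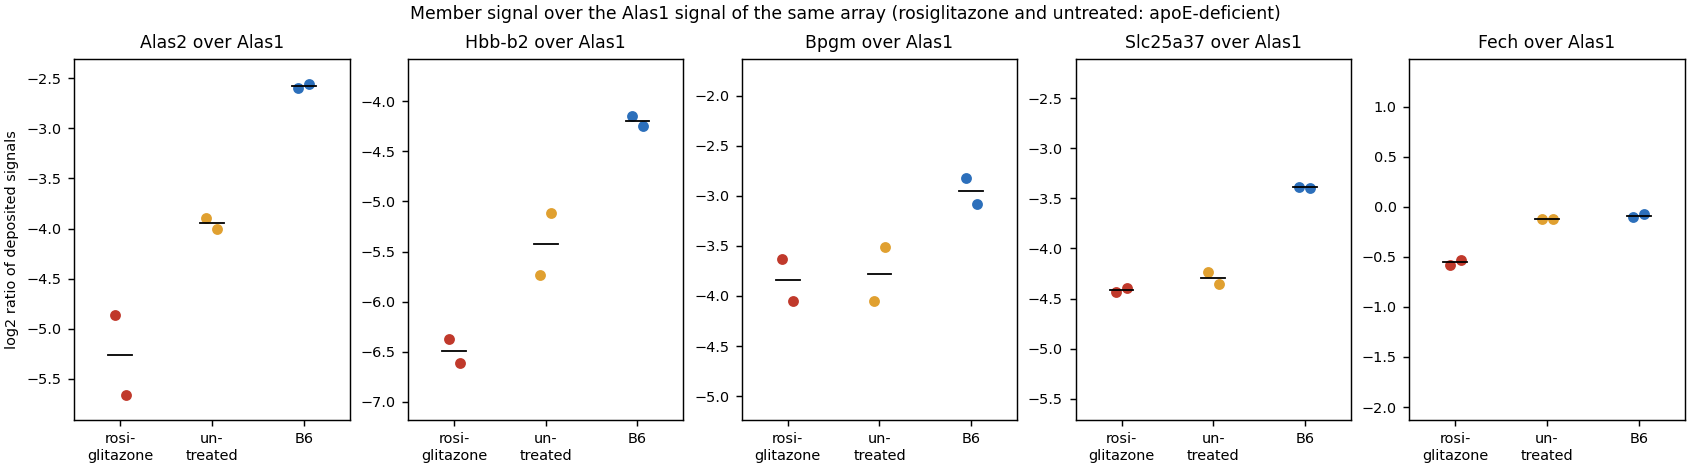
Log2 ratio of the deposited signal of each member to that of Alas1 (1424126_at) on the same array, with a bar at each group's mean of 2 arrays and the same log2 span in each panel. The ratio of Alas2 runs from -5.66 to -2.55 over the arrays, and for Slc25a37 and Bpgm the apoE-deficient groups lie together below B6.

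Other ways of scaling gave other differences, and not by the same amount for all probe sets. The median difference of all tested probe sets for treated minus untreated apoE-deficient hearts was -0.02 with quantile normalization, 0.233 with array medians centred, 0.181 with hybridization controls, 0.0202 with trimmed means and 1.13 unscaled. Relative to that median, the treated minus untreated difference over these 5 settings lay between -1.44 and -1.33 for Alas2, between -1.12 and -1.01 for Hbb-b2, between -0.582 and -0.419 for Fech, between -0.348 and -0.219 for Slc25a37, between -0.278 and -0.142 for Bpgm and between -0.151 and 0.0562 for Alas1. Without that correction, Bpgm and Slc25a37 turned to 0.0914 and 0.0142 with array medians centred. Unscaled, where the median was 1.13, only Alas2 of the 6 members stayed lower, at -0.198, beside 0.0192 for Hbb-b2, 0.66 for Fech, 0.915 for Slc25a37, 0.993 for Bpgm and 1.09 for Alas1. In untreated apoE-deficient minus B6 hearts, Alas2, Hbb-b2, Bpgm and Slc25a37 were lower in all 5 settings with or without it.

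Across the 6 arrays, which share groups and scaling, the log2 signal of Alas2 had a Pearson correlation of 0.968 with that of Hbb-b2, 0.934 with Slc25a37, 0.886 with Bpgm, 0.840 with Fech and -0.32 with Alas1. Among 904 other genes whose group means spanned at least 1 log2 unit, 34 had a correlation above 0.9 with Alas2. The most alike were Acot1 (0.989), P3h4 (0.984), Gm19277 (0.982), Gadd45b (0.980), Bcam (0.977) and Ramp1 (0.974). Whether the RNA of these genes came from red blood cells was not tested. Acot1 is a cytosolic acyl-CoA thioesterase. Acot1 averaged 5.72 in treated, 6.97 in untreated apoE-deficient and 7.74 in B6 hearts. For Alas1, the closest of 4260 genes whose group means spanned at least 0.5 was Cartpt at 0.873, and 0 exceeded 0.9. The group means of Alas1 itself lay between 11.66 and 11.70. Genes picked for a wider span could hardly follow it, so nothing is read from that count.

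The other genes of red blood cells, heme and iron were tested, and 27, 17 and 27 of them passed in the 3 comparisons with limma. Without an intensity trend in its variance estimate, 10, 0 and 3 passed (24, 22 and 24 at an unadjusted p under 0.05), so the calls in untreated apoE-deficient against B6 hearts rest on that trend. Of all tested genes, 11.4%, 3.85% and 8.78% were called higher in the 3 comparisons, and 12.3%, 4.66% and 9.87% lower. The list counts below, each with its number tested, are to be read beside these shares. Because the lists were drawn up with earlier results of these data known, the p-values below are no independent test. Few other red blood cell genes could be followed beside the members. Of 32 listed, 23 had a probe set of their own and 12 were above the dim filter. With treatment 1 rose, 2 fell and 9 did not pass, in untreated apoE-deficient against B6 hearts 1 rose and 0 fell, and in treated apoE-deficient against B6 hearts 1 rose and 2 fell. The list had median differences of -0.14, -0.16 and -0.23, nearer to those of all genes than the members were. Slc4a1, the red cell anion exchanger, had 5.54 and 4.33 in treated, 4.98 and 6.19 in untreated apoE-deficient and 6.55 and 6.27 in B6 hearts and did not pass in any comparison. Its group means of 4.93, 5.58 and 6.41 had the order of Alas2, with both apoE-deficient groups overlapping. The differences of -0.65, -0.82 and -1.47 carried an SE of 0.50 (unadjusted p = 0.0157 with limma for the last). Slc4a1 was dim, at deposited signals from 12.8 to 71.2. In untreated apoE-deficient against B6 hearts the gene that rose was Rhd, by 0.74 ± 0.14 (limma adjusted p = 0.0182), where Alas2 was lower. Rhd had 7.83 and 7.69 in treated, 7.99 and 8.27 in untreated apoE-deficient and 7.30 and 7.48 in B6 hearts. Its call was lost with array medians centred, and leaving out 1 array at a time gave values from 0.599 to 0.882. The gene that rose with treatment was Epor, the erythropoietin receptor, with 7.43 and 7.79 in treated and 5.98 and 5.29 in untreated apoE-deficient hearts (1.97 ± 0.27, limma adjusted p = 0.00119). Sptb and Ank1, beta-spectrin and ankyrin-1 of the red cell membrane skeleton, which heart muscle also makes, fell by 0.45 ± 0.07 (adjusted p = 0.003) and 0.36 ± 0.04 (adjusted p = 0.000439). The call of Sptb was lost with array medians centred and with control scaling, and Ank1 lay between -0.533 and -0.211 in 3 other scalings and turned to 0.0235 when its probe sets were averaged. That average took in probe sets below the dim filter. The other tested Ank1 probe set, 1419421_at, gave -0.15 and did not pass.

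The heme enzymes that act between Alas1 or Alas2 and Fech differed little. Of 5 tested, Uros alone passed with treatment, at -0.38 ± 0.09 (adjusted p = 0.0168), and 0 passed in untreated apoE-deficient against B6 hearts with limma (2 at an unadjusted p under 0.05). Alad and Urod were lower in treated apoE-deficient than in B6 hearts, at -0.28 and -0.20 (adjusted p = 0.0222 and 0.0243), and these 3 calls were each lost without 2 or more single arrays in turn, with array medians centred and with control scaling, where Alad and Urod turned to 0.0428 and 0.0434. With its probe sets averaged Uros turned to 0.127. Of 12 genes of mitochondrial transport and iron-sulfur clusters that serve heme synthesis, 1 rose and 4 fell with treatment, 3 rose and 1 fell in untreated apoE-deficient against B6 hearts, and 3 rose and 2 fell in treated apoE-deficient against B6 hearts. Slc25a38, the carrier that brings glycine to the step of Alas2, had 7.51 and 7.50 in treated, 8.45 and 8.27 in untreated apoE-deficient and 7.74 and 7.98 in B6 hearts. It fell by 0.85 ± 0.13 with treatment (adjusted p = 0.0019; -0.748 to -0.478 in 3 other scalings), and unlike Alas2 it was highest in untreated apoE-deficient hearts. Of 5 regulators linked to Alas1, Ppargc1a fell by 0.58 ± 0.07 (adjusted p = 0.000556) and Esrra rose by 0.37 ± 0.10 (adjusted p = 0.0316) with treatment, where the brighter Alas1 probe set stood at 0.04 ± 0.05. The call of Ppargc1a was lost with array medians centred, at -0.284, and its 4 other tested probe sets gave -0.34, -0.20, -0.17 and -0.15, of which only the first passed. The call of Esrra was lost in 5 of 6 fits that each left out 1 array, at 0.189 without untreated replicate 1, and without the dim filter. Nr1d1, a clock repressor known to act on Alas1, fell by 0.92 ± 0.11 in untreated apoE-deficient against B6 hearts (adjusted p = 0.00223), where Alas1 stood at -0.02 ± 0.05.

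Of 18 tested genes of iron uptake, storage and export, 4 rose and 1 fell with treatment, 1 rose and 3 fell in untreated apoE-deficient against B6 hearts, and 5 rose and 3 fell in treated apoE-deficient against B6 hearts. Tfrc, the transferrin receptor through which red cell precursors and other cells take up iron, had 11.10 and 11.05 in treated, 9.88 and 10.08 in untreated apoE-deficient and 10.58 and 10.62 in B6 hearts. Its order was not that of Alas2: it rose by 1.09 ± 0.07 with treatment (adjusted p = 1.62e-05) and fell by 0.62 ± 0.07 in untreated apoE-deficient against B6 hearts (adjusted p = 0.00169, a call lost with its probe sets averaged). Hamp, which encodes hepcidin, the hormone that closes the iron exporter ferroportin, rose by 1.34 ± 0.10 with treatment (adjusted p = 3.1e-05), and its second probe set gave 1.13. Aco1, the iron regulatory protein, rose by 1.01 ± 0.09 (adjusted p = 8.4e-05), and its other tested probe set, 1423644_at, by 0.36 (adjusted p = 0.0437). With its probe sets averaged, 1 of them below the dim filter, the value was 0.155. Fth1, the ferritin heavy chain, was 0.24 ± 0.03 higher (adjusted p = 0.00156), -0.25 at another probe set and of the other sign in 3 other scalings, so its direction is not settled.

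Of 11 tested genes that scavenge, break down or export heme, 3 rose and 2 fell with treatment, 1 rose and 1 fell in untreated apoE-deficient against B6 hearts, and 3 rose and 1 fell in treated apoE-deficient against B6 hearts. Hp, haptoglobin, which binds free hemoglobin and which fat tissue also makes, had 8.74 and 8.81 in treated, 6.65 and 6.20 in untreated apoE-deficient and 6.18 and 6.41 in B6 hearts, a difference of 2.35 ± 0.19 with treatment (adjusted p = 6.03e-05). Blvrb, the biliverdin reductase abundant in red blood cells, had 9.0 and 8.89 in treated, 9.62 and 9.54 in untreated apoE-deficient and 8.59 and 8.59 in B6 hearts. It rose by 0.99 ± 0.08 in untreated apoE-deficient against B6 hearts (adjusted p = 0.000312), where Alas2 was lower. With treatment Blvrb fell by 0.63 ± 0.08 (adjusted p = 0.000782), a call lost with array medians centred at -0.286. Hmox1, the inducible heme oxygenase, rose by 0.82 ± 0.22 (adjusted p = 0.0274), and this call was lost without any 1 of the 4 apoE-deficient arrays at values from 0.80 to 0.844. Of 8 proteins that carry heme or attach it, such as myoglobin, catalase and cytochrome c, 5 rose and 1 fell with treatment, 1 rose and 4 fell in untreated apoE-deficient against B6 hearts, and 2 rose and 1 fell in treated apoE-deficient against B6 hearts. Cat, catalase, rose by 0.96 ± 0.10 (adjusted p = 0.000253) and Mb, myoglobin, fell by 0.33 ± 0.03 (adjusted p = 0.00017) with treatment. The Mb value lay between -1.13 and -0.805 in 3 other scalings, and with its probe sets averaged it was -0.115 and no longer passed. The other Mb probe set in that average lay below the dim filter. Cycs and Cyc1 changed sign in the same 3 scalings.

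**Figure D5:**
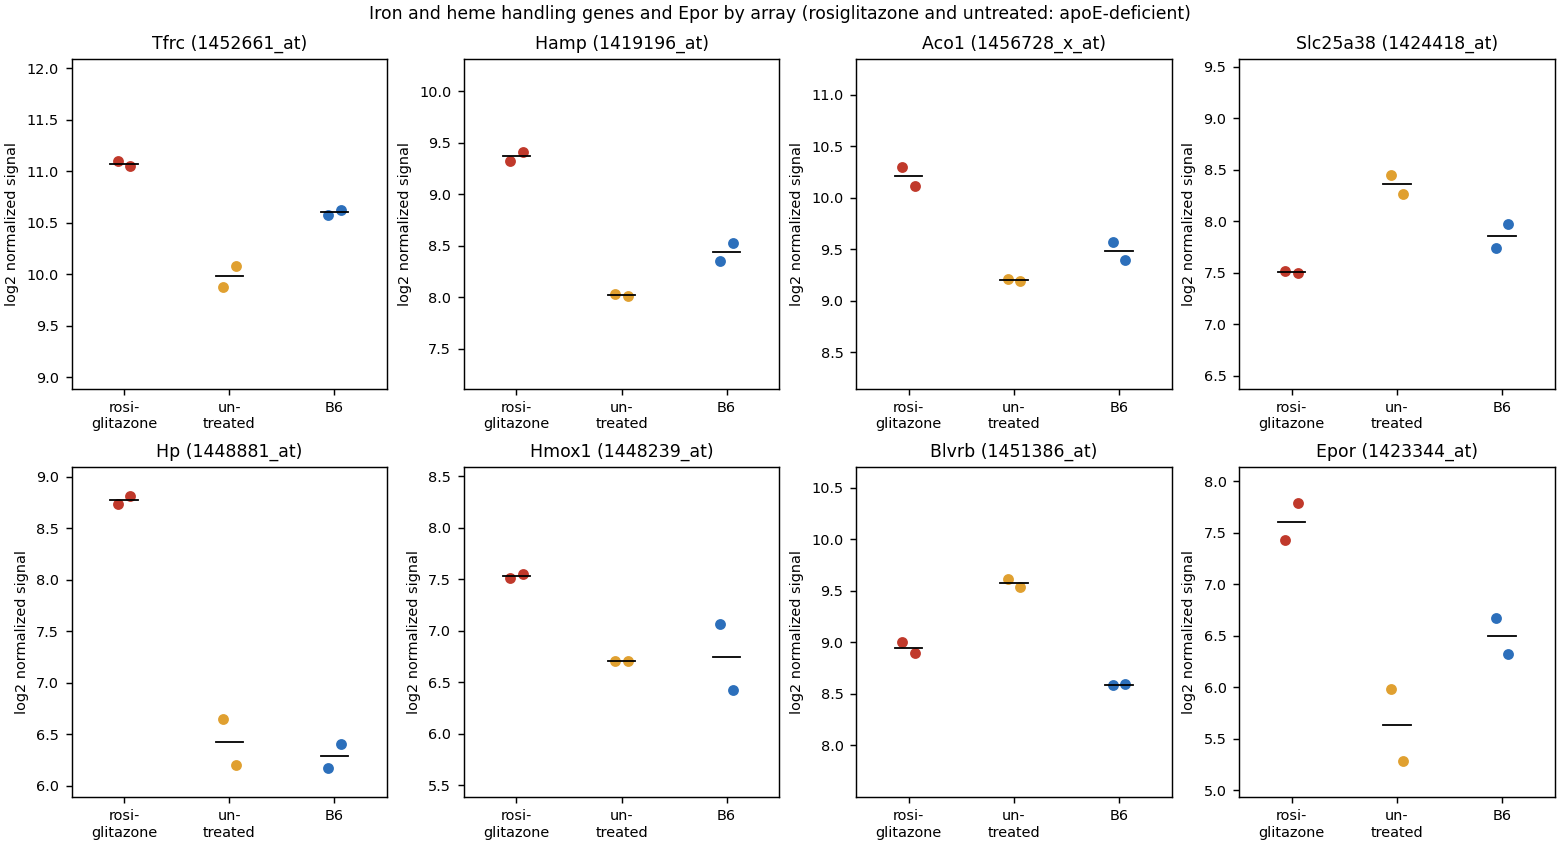
Log2 normalized signal on each array for 8 iron and heme genes outside the members, with a bar at each group's mean of 2 arrays and the same log2 span in each panel. In Tfrc, Hamp, Aco1 and Epor the treated arrays are the highest and the untreated apoE-deficient arrays the lowest, and Slc25a38 and Blvrb are highest in untreated apoE-deficient hearts.

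Markers of other cells also moved with the treated group, and their part in the differences of the members was not tested. Of 5 tested markers of brown and white fat cells, 4 rose with treatment, and the summed normalized signal of the 6 on the array was 14594 and 14874 in treated, 1211 and 1186 in untreated apoE-deficient and 1248 and 1237 in B6 hearts. Of 4 tested airway markers 2 rose, and the sum of 6 was 5679 and 6373 in treated, 78.0 and 141 in untreated apoE-deficient and 105 and 120 in B6 hearts. The sum of 7 cardiomyocyte markers, of which 1 rose and 4 fell with treatment, was 98003 and 101807 in treated, 108054 and 108551 in untreated apoE-deficient and 111460 and 110269 in B6 hearts. Other blood cells were followed by their own markers. Of 6 tested platelet markers, 0 passed in any comparison with limma (0, 1 and 1 at an unadjusted p under 0.05). Their median differences were -0.51 for treated minus untreated apoE-deficient, 0.27 for untreated apoE-deficient minus B6 and -0.12 for treated apoE-deficient minus B6 hearts. With treatment the differences were -0.86 for Gp6, -0.53 for Itga2b, -0.52 for Ppbp, -0.49 for Treml1, -0.02 for Pf4 and 0.08 for Gp1bb. Their SEs ran from 0.07 for Pf4 to 0.53 for Gp6. The sum of 7 was 1266 and 1360 in treated, 1473 and 1402 in untreated apoE-deficient and 1160 and 1265 in B6 hearts. Most of that sum was Pf4, at log2 signals from 9.82 to 10.14. The sum of 8 neutrophil and marrow granulocyte markers was 486 and 515 in treated, 268 and 202 in untreated apoE-deficient and 389 and 344 in B6 hearts. Of the 6 tested, 1 rose and 0 fell with treatment, 0 rose and 1 fell in untreated apoE-deficient against B6 hearts, and 1 rose and 1 fell in treated apoE-deficient against B6 hearts. The one that rose was Ltf, lactoferrin, which secretory epithelia also make, with log2 signals of 8.17 and 8.29 in treated, 4.74 and 5.68 in untreated apoE-deficient and 3.95 and 4.72 in B6 hearts. Most of the sum in treated hearts was Ltf. Its deposited signals there were 491 and 407, beside 150 and 84.7 for S100a8, the next brightest. S100a8 and S100a9, the calgranulins of neutrophils, were highest in B6 hearts, as the members Alas2 and Hbb-b2 were. The other tested markers of the list were not alike and did not pass. Group means in treated, untreated apoE-deficient and B6 hearts were 4.79, 4.88 and 5.63 for Mpo. They were 6.01, 6.29 and 5.63 for Ngp and 5.18, 4.91 and 4.98 for Elane. The calls of S100a8 and S100a9 were not tried under other settings. S100a8 fell by 1.38 ± 0.26 in untreated apoE-deficient against B6 hearts (adjusted p = 0.0176), with 6.57 and 6.17 in treated, 6.11 and 5.50 in untreated apoE-deficient and 7.13 and 7.25 in B6 hearts. S100a9 fell by 1.46 ± 0.34 in treated apoE-deficient against B6 hearts (adjusted p = 0.0205), and its group means of 5.34 in treated, 5.63 in untreated apoE-deficient and 6.80 in B6 hearts had the order of Alas2, with both apoE-deficient groups overlapping. The sum of 6 lymphocyte markers, with Cd79b higher on treatment, was 248 and 288 in treated, 101 and 134 in untreated apoE-deficient and 125 and 98.0 in B6 hearts. No listed marker had a deposited signal of 0 on any array. Apoe itself, as a check of the labels, had log2 signals of 6.20 and 6.25 in treated, 5.24 and 6.29 in untreated apoE-deficient and 11.91 and 11.86 in B6 hearts.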

How the data were processed

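Biotin-labelled cRNA of mouse hearts was measured on Affymetrix arrays, per the labels, with 2 arrays in each of 3 groups. The authors deposited a table of linear intensity values, 1 per array for each probe set. GCOS is named in the submitters' processing notes; its version, background correction and scaling were not given in the sources used.

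The deposited intensities were quantile normalized over 45037 non-control probe sets (64 controls left out), 11.1 was added (the 25th percentile) and log2 was taken. Probe sets with a mean above the 40th percentile (4.99), 27022 in all, were fitted with limma 3.58.1 under R 4.3.3 (lmFit, then eBayes with trend; 6 arrays, 3 groups, 3 residual degrees of freedom), and p-values were adjusted by Benjamini-Hochberg over all of them. The platform annotation gave 34945 probe sets 1 symbol, 932 several and 9160 none, and 34741 symbols were updated by gene number through the RefSeq table of GRCm38.p6. The brightest probe set stands for a gene. The test was tried first on simulated data with independent normal noise and no brightness difference between groups, so that trial did not cover the scaling.

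The members and gene lists were chosen with earlier results of these data known. Named genes were all member probe sets, up to 4 called genes of each list with the smallest p in a comparison, and the 6 genes most correlated with Alas2 or Alas1. Slc4a1, the shared globin probe sets and genes named for a count of 5 or fewer were picked with their values already known. The 2 arrays of a group correlated with r = 0.981, 0.960 and 0.970 (treated, untreated apoE-deficient, B6).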

Additional observations from a re-analysis of the deposited data

How the results depend on the processing

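Members: leaving out 1 array at a time gave a median of the 6 members from -0.493 to -0.387 for treated minus untreated apoE-deficient, from -0.804 to -0.569 for untreated apoE-deficient minus B6 and from -1.07 to -1.00 for treated apoE-deficient minus B6 hearts. In the same 3 comparisons that median was -0.113, -0.894 and -0.842 with array medians centred and 0.788, -1.08 and -0.131 unscaled. With control scaling it was -0.227 for treated minus untreated apoE-deficient and -0.68 for treated apoE-deficient minus B6, and with probe sets averaged -0.556 for untreated apoE-deficient minus B6. Unscaled, Fech turned to 0.66 and 0.352 (against B6) and Hbb-b2 to 0.0192 with treatment.

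Calls: without single arrays 2933 to 5018 probe sets passed for treated minus untreated apoE-deficient (5355 with all arrays), 617 to 1730 for untreated apoE-deficient minus B6 (1909) and 2205 to 4104 for treated apoE-deficient minus B6 (4066). Listed heme, red blood cell and iron genes numbered 19 to 24 (27 with all arrays), 4 to 15 (17) and 14 to 25 (27). Without the intensity trend 1653, 10 and 626 probe sets and 10, 0 and 3 listed genes passed (24, 22 and 24 listed genes at an unadjusted p under 0.05 with limma). Unscaled, 22739 and 18723 probe sets passed for the treated comparisons (99.9% and 99.7% higher) and 65, 10 and 55 listed genes. Control scaling gave 3039 probe sets for untreated apoE-deficient minus B6 and 7604 for treated apoE-deficient minus B6, and probe sets averaged gave 8 listed genes for the first of these. The share of calls that were higher was 50.5%, 44.8% and 49.6%, and it was 88.0%, 15.3% and 74.9% with array medians centred, 79.6%, 80.9% and 92.5% with control scaling and 4.65% for untreated apoE-deficient minus B6 unscaled. The causes were not tested, and the brightness of the arrays cannot be told apart from the groups.

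Listed genes that passed and turned sign for treated minus untreated apoE-deficient hearts did so as follows. With array medians centred Cyc1 was -0.305, Cycs -0.0825, Fth1 -0.307, Lonp1 0.0437 and Slc25a28 0.0328; with trimmed means Cyc1 was -0.63, Cycs -0.408 and Fth1 -0.632; with control scaling they were -0.452, -0.229 and -0.454. Averaged probe sets, those below the dim filter included, gave Ank1 0.0235, Fth1 -0.00565 and Uros 0.127. Unscaled, Ank1 was 0.69, Blvrb 0.615, Hmox2 0.865, Lonp1 0.945, Mb 0.0966, Ppargc1a 0.618, Slc25a28 0.934, Slc25a38 0.423, Sptb 0.808 and Uros 0.863, and globin probe sets 1417714_x_at and 1452757_s_at were 0.0166 and 0.229. For treated apoE-deficient minus B6, Cycs was -0.0462 and -0.225 and Fth1 -0.365 and -0.544 (medians, trimmed means), Slc25a39 -0.121 (trimmed means), and with control scaling Fth1 was -0.228, Alad 0.0428, Slc25a28 0.0359 and Urod 0.0434. Unscaled, Alad was 0.611, Ank1 0.561, Clpx 0.35, Hjv 0.572, Hmox2 0.543, Mb 0.0337, Ppargc1a 0.349, Slc25a28 0.599, Sptb 0.316 and Urod 0.615. For untreated apoE-deficient minus B6, Cyc1 was 0.0299 and 1452757_s_at 0.109 with control scaling, and unscaled Iscu was -0.0587, Lonp1 -0.0149 and Mb -0.0629.

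With the replicate block, 5344, 1937 and 4103 probe sets and 25, 17 and 27 listed genes passed. The members' differences are the same there by design, since every group holds both replicate numbers. The arrays share only a number: deviations of equal numbers correlated at -0.00631, 0.0196 and 0.0329 between groups. Of 24, 17 and 25 named listed genes that passed, 12, 3 and 8 passed in all leave-one-out fits and in 3 other scalings.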
